A study of Mus musculus with 4 samples.

Results

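The nuclear genes of respiratory complex I were followed after exposure to lactic acid in LL2 cells, a Lewis lung carcinoma line of the mouse. The 46 genes are the protein-coding rows of the deposited count table whose symbol begins with Nduf, out of 54532 genes in the table, and they lie on 17 chromosomes. Sorted by textbook role, they comprise 7 core subunits, 29 accessory subunits, 8 assembly factors named Ndufaf, and 2 genes, Ndufa4 and its relative Ndufa4l2, whose products are now counted with complex IV. Cells of the treated group received 20 mM lactic acid, put straight into the medium, for 24 h, and control cells had an equivalent volume of phosphate-buffered saline (PBS) for 24 h. Each group has 2 libraries of polyadenylated RNA that the labels call biological replicates. Since the labels do not say whether these came from separate cultures, p-values measure only the spread between these libraries. All 4 libraries come from 1 line, and the labels give neither the pH of the medium nor a lactate salt control.

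Complex I is the largest enzyme of the respiratory chain. It takes electrons from NADH through a flavin and a chain of iron-sulfur clusters in its matrix arm, hands them to ubiquinone where the arms meet, and uses the energy to pump protons through its membrane arm. The core subunits carry out these reactions, and those of the membrane arm are encoded by the mitochondrial genome. Accessory subunits surround and stabilise the core, while assembly factors help to build or modify the enzyme and are absent from the finished complex.

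Sequences around the transcription start were available from RefSeq (GRCm38.p6) for 40 of the 46 genes, as windows of 250 bases before to 50 bases after the start. Genes for which no window was used include Ndufa2, Ndufa4l2, Ndufb9, Ndufs1 and Ndufaf6. Promoters of respiratory chain genes are known for sites of NRF1, of ETS factors such as GABP, and of YY1. The windows were searched on both strands for GCGCANGCG (NRF1), CCGGAAG (ETS) and AAGATGGCG (YY1). The windows of the genes with the largest rises, Ndufaf3 and Ndufb3, and with the largest falls, Ndufb10 and Ndufa9, are shown 5′ to 3′ along each gene's own strand, with motif letters in capitals.
Ndufaf3 (chr9:108567387-108567686, minus strand): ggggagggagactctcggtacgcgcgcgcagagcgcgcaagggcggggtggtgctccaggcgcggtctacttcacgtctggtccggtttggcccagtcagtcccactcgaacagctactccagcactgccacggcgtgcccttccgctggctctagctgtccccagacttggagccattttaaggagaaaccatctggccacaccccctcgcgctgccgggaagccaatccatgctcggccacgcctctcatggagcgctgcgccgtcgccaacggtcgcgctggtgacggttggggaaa
Ndufb3 (chr1:58586147-58586446, plus strand): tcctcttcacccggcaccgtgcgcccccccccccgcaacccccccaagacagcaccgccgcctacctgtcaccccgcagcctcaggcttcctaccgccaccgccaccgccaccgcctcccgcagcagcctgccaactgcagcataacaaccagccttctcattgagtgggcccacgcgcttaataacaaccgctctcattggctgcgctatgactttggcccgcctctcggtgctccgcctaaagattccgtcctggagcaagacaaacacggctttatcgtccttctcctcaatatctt
Ndufb10 (chr17:24724374-24724673, minus strand): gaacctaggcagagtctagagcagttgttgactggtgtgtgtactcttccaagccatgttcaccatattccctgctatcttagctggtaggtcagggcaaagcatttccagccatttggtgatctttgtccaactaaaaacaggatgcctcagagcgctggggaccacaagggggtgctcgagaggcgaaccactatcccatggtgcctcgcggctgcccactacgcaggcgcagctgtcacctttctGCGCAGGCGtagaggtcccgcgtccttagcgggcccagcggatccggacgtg
Ndufa9 (chr6:126849095-126849394, minus strand): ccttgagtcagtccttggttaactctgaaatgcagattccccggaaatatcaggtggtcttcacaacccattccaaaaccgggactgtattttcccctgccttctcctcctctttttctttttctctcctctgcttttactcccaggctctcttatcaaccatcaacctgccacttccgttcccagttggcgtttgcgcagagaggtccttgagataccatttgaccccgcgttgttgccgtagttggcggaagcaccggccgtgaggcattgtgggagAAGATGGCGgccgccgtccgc

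The windows of Ndufaf3 and Ndufb3 held none of the 3 motifs as spelled, that of Ndufb10 held the NRF1 letters on the sense strand from 2 bases before the start, and that of Ndufa9 held the YY1 letters on the sense strand from base 30 after it. Matches may overlap, since the NRF1 letters can read nearly the same on both strands. Of the 40 genes, 10 held the NRF1 motif (25%), against 15.7% of the 9778 tested genes with a window and 7.03% of all 27025 genes with one. The ETS motif was present in 6 of 40 (15%), against 20.5% of tested genes and 9.93% of all genes. The YY1 motif was also present in 6 of 40 (15%), against 3.64% of tested genes and 1.64% of all genes. In all 6 the YY1 letters lay on the sense strand within 50 bases after the start, a place they had in 191 of the 356 tested genes with the motif (53.7%). The 6 stretches of 30 bases around this motif, the one most over the share in tested genes, are set side by side.
Ndufa9 (chr6:126849096-126849125, minus strand): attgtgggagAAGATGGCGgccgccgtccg
Ndufc1 (chr3:51408914-51408943, minus strand): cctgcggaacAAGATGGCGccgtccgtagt
Ndufs4 (chr13:114388045-114388074, minus strand): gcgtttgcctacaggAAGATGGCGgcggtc
Ndufs6 (chr13:73328433-73328462, minus strand): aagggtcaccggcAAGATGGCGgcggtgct
Ndufs7 (chr10:80249463-80249492, plus strand): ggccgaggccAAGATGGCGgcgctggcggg
Ndufaf8 (chr11:120098934-120098963, plus strand): ggcagggcccAAGATGGCGgcgccctcgag

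Of these 6 genes, Ndufs6 was higher with lactic acid, Ndufa9 was lower, and the other four did not pass the test. At least 1 of the 3 motifs was found in 4 of the 9 higher genes with a window, in 4 of the 8 lower genes and in 12 of the 23 genes that did not pass. A match describes letters only and is no evidence of a site, and a window without a match says nothing of the factor.

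Counts summed to 15501006 and 16331584 in the lactic acid libraries and to 16164237 and 17409990 in the PBS libraries. At this depth 3 counts correspond to 0.175 to 0.191 CPM (counts scaled to library size, with TMM factors), a limit that covers counting error only. The mesenchymal marker Vim of this line had a mean of 3345 CPM with lactic acid, against 4053 CPM with PBS, the keratin gene Krt8 had 53.3 and 118 CPM, and its partner Krt18 had 99.1 and 99.3 CPM. The epithelial markers Epcam and Cdh1 were at or near 0 in every library, as were the leukocyte markers Ptprc, Adgre1 and Cd3e. The 5 leukocyte markers summed to 6.93 and 7.92 CPM with lactic acid and to 4.03 and 4.26 CPM with PBS, nearly all of it Cd68, and the 3 endothelial markers to under 1 CPM in every library. The 3 fibroblast markers summed to 30.9 and 30.7 CPM with lactic acid and to 21.7 and 20.2 CPM with PBS, nearly all of it Pdgfra, while Col1a1 (log2 fold change -0.19) and Dcn (-1.40) had fitted changes below 0 that did not pass. The part of these marker levels in the results was not tested. In RNA of whole cultures, fewer cells of a type and less RNA per cell cannot be told apart.

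Of the 45 genes abundant enough to test, 9 were higher, 11 were lower and 25 did not pass (edgeR's quasi-likelihood test, Benjamini-Hochberg adjusted p below 0.05 over all 13922 genes tested). The called genes were 44.4% of the complex I genes tested, close to the 49.0% of all genes tested. Of all genes tested, 24.7% were called higher and 24.3% lower. Only Ndufaf3 was both called and changed by at least 1.5-fold, which is 2.22% of the complex I genes tested beside 13.8% of all genes. In 29 of the 45 genes (64.4%), among them all 20 called, the lactic acid libraries were both above or both below the PBS libraries, beside 72.3% of all genes tested. The median log2 fold change of the 45 genes was -0.01 with quartiles at -0.15 and 0.16, and that of all genes tested was 0.01 with quartiles at -0.23 and 0.29. DESeq2's Wald test called fewer of all genes, 4745 against 6822 with edgeR, and fewer complex I genes, 5 higher and 8 lower.

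The 3 classes did not have the same balance. Among the 7 core genes 0 were called higher and 4 lower by edgeR, with a median log2 fold change of -0.11. Accessory genes were called as often in either direction, 6 higher and 6 lower of 29, with a median of -0.01. Among the 8 assembly factor genes 3 were called higher and 0 lower by edgeR, with a median of 0.16. The called shares of the core, accessory and assembly factor genes were 57.1%, 41.4% and 37.5%, beside 49.0% of all genes tested (24.7% higher and 24.3% lower). Upper quartile scaling called 1 core gene higher, Ndufs7. At an unadjusted p below 0.05, 1 core gene was higher and 0 assembly factor genes lower, and DESeq2 likewise called 0 core genes higher and 0 assembly factor genes lower. The core median ranged from -0.13 to -0.09 and the assembly median from 0.14 to 0.22 over all 13 alternative settings, while the accessory median was above 0 with upper quartile scaling and without lactic acid replicate 2. No test of the difference between classes was made. The classes also differ in level. With PBS the assembly factor genes had means of 5.45 to 26.0 CPM, and every core gene had a mean of at least 43.9 CPM. Across the 45 genes, log2 fold change and mean CPM had a Spearman rho of -0.44, beside -0.16 across all genes tested. The part of level in the balance of the classes was not tested.

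**Figure D1:**
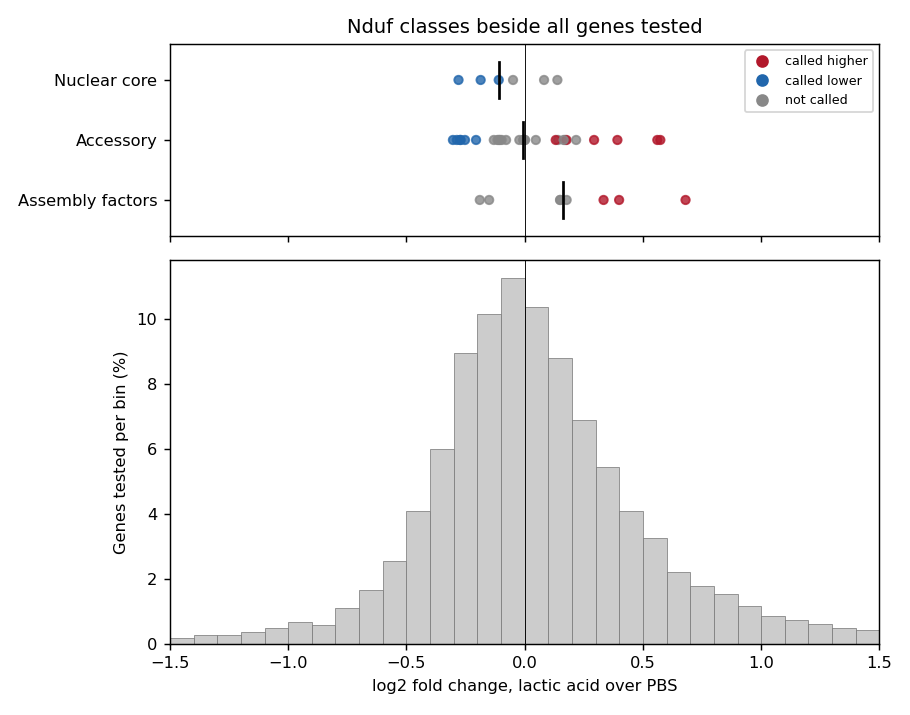
Upper panel: log2 fold change (lactic acid over PBS) of core, accessory and assembly factor genes, coloured by call, with a black tick at the median of the whole class (1 core gene has no point). Lower panel: percent of the 13922 genes tested per bin of 0.1 on the same axis, with 374 genes beyond the ends of the axis. The core median lies at -0.11, the accessory median at -0.01 and the assembly median at 0.16, and the Nduf genes tested lie between -0.30 and 0.68.

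The summed levels of the classes moved the same way. Core genes summed to 702 and 686 CPM in the lactic acid libraries and to 756 and 746 CPM in the PBS libraries, so both lactic acid libraries lay below both PBS libraries. Accessory genes summed to 1207 and 1180 CPM with lactic acid and to 1204 and 1214 CPM with PBS, and here the groups overlapped. Assembly factor genes summed to 135 and 138 CPM with lactic acid and to 122 and 121 CPM with PBS, higher in both lactic acid libraries. Per 100 CPM of core genes there were 19.2 and 20.1 CPM of assembly factor genes with lactic acid, against 16.1 and 16.2 CPM with PBS. With 2 libraries against 2, an exact permutation test of such a sum, two-sided, cannot go below p = 0.333, so these sums stand as a description.

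**Figure D2:**
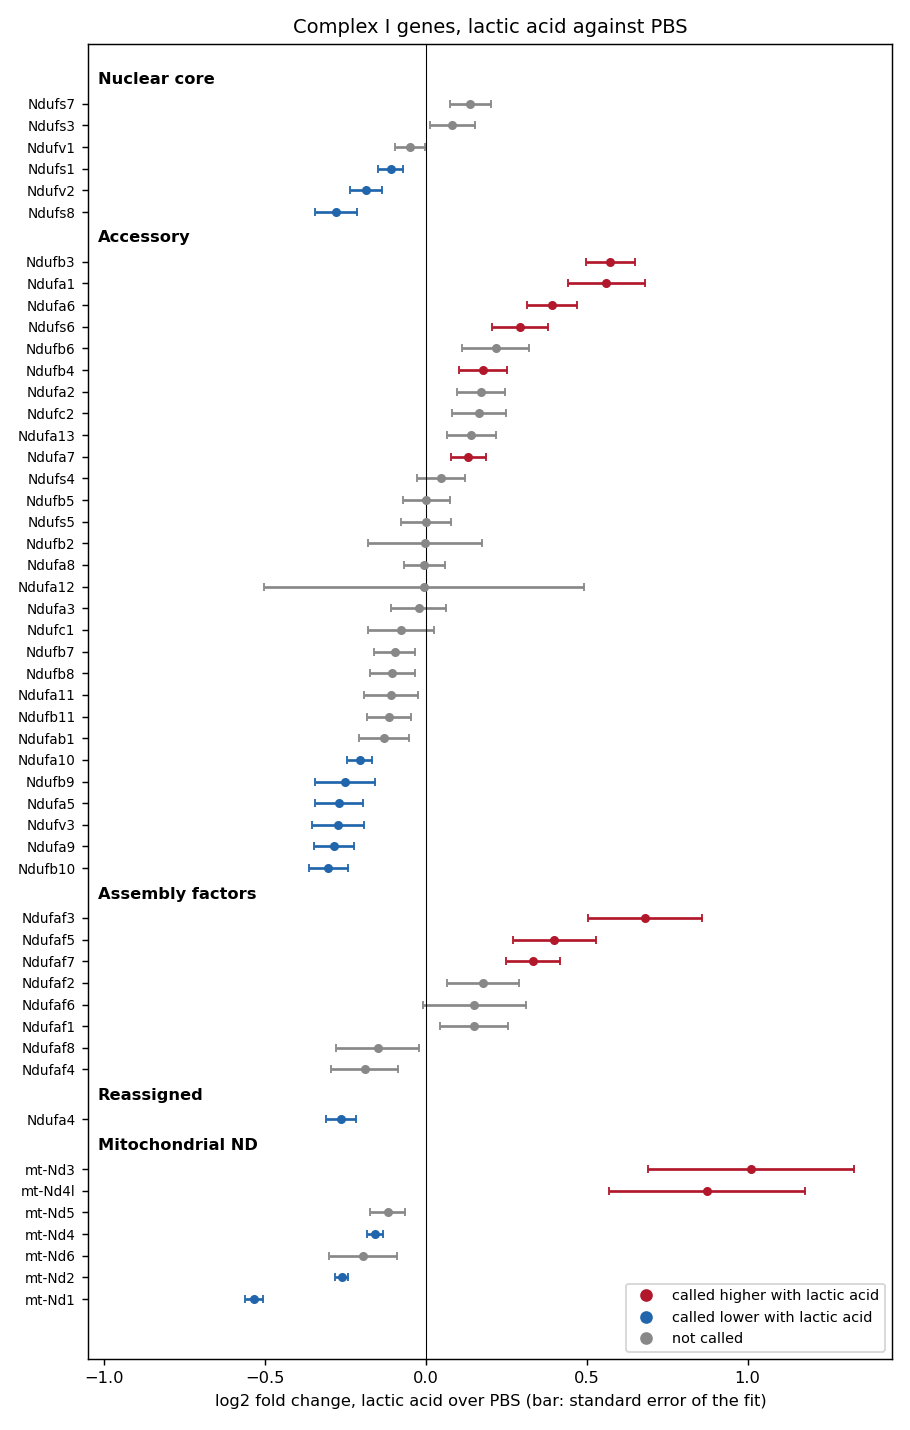
Log2 fold change of the complex I genes tested, except 1 core gene, and of the 7 mitochondrial ND genes, by class, as points with the standard error of the fit as bars. Red marks genes called higher with lactic acid, blue genes called lower and grey genes that did not pass. The called core genes drawn lie left of 0 and the 3 called assembly factor genes right of it, and the bar of Ndufa12 (standard error 0.50) is the longest.

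Among core subunits, the 3 that take up electrons from NADH come first. Ndufv1 (chr19:4007497-4012806, minus strand), which holds the flavin and binds NADH, was at 99.0 and 91.5 CPM with lactic acid and at 99.3 and 97.8 CPM with PBS. These groups overlapped and the gene did not pass (log2 fold change -0.05, SE 0.05, adjusted p = 0.406). Ndufv2 (chr17:66078638-66101559, minus strand), an iron-sulfur subunit beside it, was at 83.7 and 81.9 CPM with lactic acid and at 94.8 and 93.6 CPM with PBS. Both lactic acid libraries lay below both PBS libraries, a fall of 0.19 on the log2 scale (log2 fold change -0.19, SE 0.05, adjusted p = 0.00105). Ndufs1 (chr1:63143596-63176833, minus strand), which carries several of the clusters of the chain, was at 145 and 148 CPM with lactic acid and at 159 and 158 CPM with PBS. The groups were separate, and the fall was the smallest among the called genes of the complex (log2 fold change -0.11, SE 0.04, adjusted p = 0.0165). It did not pass with DESeq2 (adjusted p = 0.108), with limma on FPKM (0.0648) or without lactic acid replicate 1 (0.103), PBS replicate 1 (0.0693) or PBS replicate 2 (0.0579). Ndufs1 shares 9 exonic bases with Eef1b2 on the other strand.

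Other core genes encode subunits on the way to ubiquinone. Ndufs8 (chr19:3908870-3912717, minus strand), which holds a pair of iron-sulfur clusters, was at 47.8 and 43.7 CPM with lactic acid and at 55.0 and 56.0 CPM with PBS. It had the largest fall of the nuclear core genes, with separate groups (log2 fold change -0.28, SE 0.07, adjusted p = 0.000312). Ndufs7 (chr10:80249121-80256794, plus strand), which carries the last cluster before ubiquinone, was at 68.9 and 59.3 CPM with lactic acid and at 59.7 and 56.7 CPM with PBS. The groups overlapped, and its fitted change of 0.14 (SE 0.06, adjusted p = 0.0678) was the only one above 0 in this class besides that of Ndufs3. Ndufs7 passed as higher with upper quartile scaling (adjusted p = 0.0398), without lactic acid replicate 2 (0.00670) and without PBS replicate 1 (0.0377). Ndufs3 (chr2:90894634-90904827, minus strand), an early subunit of assembly, was at 45.1 and 47.8 CPM with lactic acid and at 45.9 and 41.9 CPM with PBS, overlapping groups that did not pass (log2 fold change 0.08, SE 0.07, adjusted p = 0.350). Ndufs3 has a near-identical copy elsewhere and overlaps Kbtbd4, so its reads may be shared.

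The accessory gene with the smallest p was Ndufb3 (chr1:58586384-58595964, plus strand), a subunit of the membrane arm, whose promoter window is shown above. It was at 44.5 and 49.0 CPM with lactic acid and at 29.6 and 33.3 CPM with PBS, a wide gap between the groups (1.49-fold, log2 fold change 0.57, SE 0.08, adjusted p = 5.18e-09). Ndufa1 (chrX:37187588-37191163, minus strand), a small X-linked subunit with a single membrane span, was at 17.3 and 19.9 CPM with lactic acid and at 12.7 and 12.5 CPM with PBS. The groups were separate with a rise almost as large (1.48-fold, log2 fold change 0.56, SE 0.12, adjusted p = 7.09e-05). Ndufa6 (chr15:82350140-82354322, minus strand), a protein of the LYR family that binds the acyl carrier subunit, was at 44.2 and 41.4 CPM with lactic acid and at 31.4 and 33.8 CPM with PBS, again without overlap (log2 fold change 0.39, SE 0.08, adjusted p = 1.71e-05). Ndufs6 (chr13:73319838-73328542, minus strand), a zinc-binding subunit of the NADH end, was at 30.3 and 29.2 CPM with lactic acid and at 23.9 and 24.6 CPM with PBS. Its groups were separate, and the call was lost with DESeq2 (log2 fold change 0.29, SE 0.09, adjusted p = 0.00395 with edgeR and 0.0755 with DESeq2). Ndufs6 shares 30 exonic bases with Mrpl36, which holds 113% as many reads.

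Ndufa7 (chr17:33824591-33838316, plus strand), a subunit of the matrix arm, was at 79.7 and 77.5 CPM with lactic acid and at 74.0 and 69.6 CPM with PBS, close groups that did not overlap (log2 fold change 0.13, SE 0.05, adjusted p = 0.0400). It did not pass in 8 of 13 alternatives, including those without lactic acid replicate 1 (adjusted p = 0.220), lactic acid replicate 2 (0.0741) or PBS replicate 2 (0.296). Ndufb4, a subunit of the membrane arm with a near-identical copy, was the last called higher (log2 fold change 0.18, adjusted p = 0.0444). It lost that call in 7 of 13 alternatives, including those without lactic acid replicate 1 (adjusted p = 0.0710), lactic acid replicate 2 (0.234) or PBS replicate 1 (0.211).

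Among accessory genes that fell, Ndufa10 (chr1:92439010-92473860, minus strand), a subunit related to nucleoside kinases, had the smallest p, at 138 and 141 CPM with lactic acid and at 161 and 161 CPM with PBS. Its groups were far apart for the spread within them (log2 fold change -0.21, SE 0.04, adjusted p = 1.22e-05). Ndufb10 (chr17:24722060-24724478, minus strand), a disulfide-bonded subunit of the membrane arm, was at 54.3 and 55.0 CPM with lactic acid and at 68.3 and 66.6 CPM with PBS. It had the largest fall of the accessory genes, with separate groups (log2 fold change -0.30, SE 0.06, adjusted p = 1.95e-05). Ndufa9 (chr6:126821721-126849136, minus strand), which binds a nicotinamide nucleotide near the junction of the arms, was at 50.3 and 51.8 CPM with lactic acid and at 63.3 and 61.4 CPM with PBS, also without overlap (log2 fold change -0.29, SE 0.06, adjusted p = 8.60e-05). Ndufa5 (chr6:24518666-24528013, minus strand), a subunit of the matrix arm, was at 33.6 and 34.4 CPM with lactic acid and at 42.3 and 39.7 CPM with PBS, separate groups with a fall that passed (log2 fold change -0.27, SE 0.08, adjusted p = 0.00226). Ndufv3 (chr17:31520115-31531326, plus strand), a small subunit of the NADH end, was at 28.7 and 30.8 CPM with lactic acid and at 36.5 and 35.5 CPM with PBS. Its groups were separate (log2 fold change -0.27, SE 0.08, adjusted p = 0.00345), but it did not pass with DESeq2 (adjusted p = 0.0539) or without lactic acid replicate 1 (0.0628). Ndufb9, another LYR protein, was the sixth called lower (log2 fold change -0.25, adjusted p = 0.0199) and did not pass with DESeq2 or without any 1 of the 4 libraries (adjusted p = 0.0560 to 0.139).

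The 17 accessory genes that did not pass had log2 fold changes from -0.13 to 0.22. They include Ndufab1, the mitochondrial acyl carrier protein (-0.13, SE 0.08), Ndufs4, whose loss causes a Leigh-like disease in mice (0.05, SE 0.08), and Ndufa13, also known as GRIM-19 (0.14, SE 0.08). Ndufa12, a subunit of the NADH end, was at 29.2 and 17.6 CPM with lactic acid and at 17.4 and 29.2 CPM with PBS. Its libraries thus differed within each group by more than any fitted change of the Nduf genes tested, and its fitted change was -0.01 with an SE of 0.50. Of genes near the threshold, Ndufa2 passed as higher with upper quartile scaling (adjusted p = 0.0336), without lactic acid replicate 2 (0.00472) and without PBS replicate 1 (0.0279), Ndufa13 without PBS replicate 2 (0.0177), and Ndufab1 as lower without PBS replicate 1 (0.0497). Ndufb6 and Ndufc2 passed as higher with limma on FPKM (adjusted p = 0.0398 and 0.0197).

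**Figure D3:**
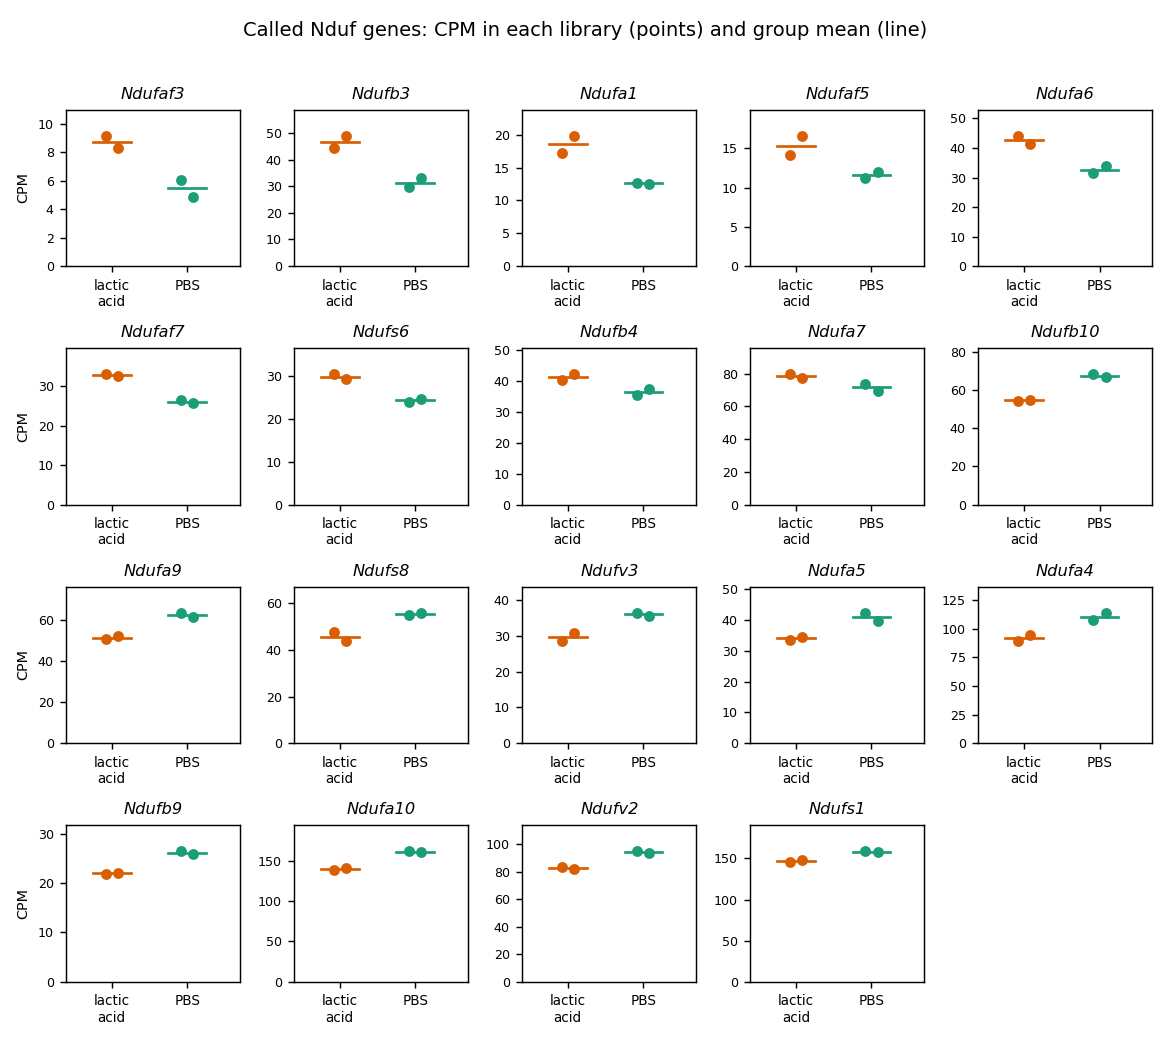
CPM in each library (points) and group mean (line) of the called Nduf genes, except 1 core gene, lactic acid at left and PBS at right in each panel, each axis starting at 0. The genes run by log2 fold change from Ndufaf3 (0.68) to Ndufs1 (-0.11 and last of the lower genes, which begin with Ndufb10), and the points of the 2 groups do not overlap in any panel.

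The assembly factor genes are taken in the order in which their products are known, largely from human cells, to act. Ndufaf3 (chr9:108565537-108567434, minus strand), which joins the early matrix arm together with Ndufaf4, was at 9.15 and 8.28 CPM with lactic acid and at 6.05 and 4.84 CPM with PBS. The groups were separate, and this was the largest change of the Nduf genes tested (log2 fold change 0.68, SE 0.18, adjusted p = 0.00103). Ndufaf3 shares 48 exonic bases with Impdh2 on the other strand, which holds 4297% as many reads, and without strand these reads cannot be told apart. Its partner Ndufaf4 (chr4:24898083-24905001, plus strand) was at 17.7 and 19.2 CPM with lactic acid and at 20.9 and 21.3 CPM with PBS. These groups did not overlap, but with the lactic acid libraries lower, and the gene did not pass (log2 fold change -0.19, SE 0.10, adjusted p = 0.127).

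The enzymes that modify core subunits follow. Ndufaf5 (chr2:140170649-140203689, plus strand), which hydroxylates an arginine of NDUFS7, was at 14.1 and 16.6 CPM with lactic acid and at 11.3 and 12.0 CPM with PBS. The groups were separate (1.32-fold, log2 fold change 0.40, SE 0.13, adjusted p = 0.00774), but the call was lost with DESeq2 (adjusted p = 0.0960), without lactic acid replicate 2 (0.166) and without PBS replicate 1 (0.0522). Ndufaf8 (chr11:120098928-120100705, plus strand), which stabilises Ndufaf5, was at 11.9 and 12.9 CPM with lactic acid and at 13.2 and 14.3 CPM with PBS. Both lactic acid libraries were lower by a little, which did not pass (log2 fold change -0.15, SE 0.13, adjusted p = 0.350). Ndufaf7 (chr17:78937136-78948052, plus strand), which methylates an arginine of a core subunit, was at 33.0 and 32.6 CPM with lactic acid and at 26.4 and 25.7 CPM with PBS. It had the tightest replicates of the assembly factor genes that rose and kept its call in all 13 alternatives (1.26-fold, log2 fold change 0.33, SE 0.08, adjusted p = 0.000676).

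The remaining assembly factor genes did not pass. Ndufaf6 (chr4:11051045-11076205, minus strand), needed for the mitochondrial subunit ND1, was at 10.5 and 7.98 CPM with lactic acid and at 8.19 and 8.46 CPM with PBS, with overlap (log2 fold change 0.15, adjusted p = 0.463). Ndufaf1 (chr2:119655446-119662827, minus strand), of the complex that builds the membrane arm, was at 20.1 and 19.8 CPM with lactic acid and at 17.3 and 18.7 CPM with PBS, higher in both lactic acid libraries (log2 fold change 0.15, adjusted p = 0.249). Ndufaf2 (chr13:108002715-108158623, minus strand), a relative of Ndufa12 that holds its place until late in assembly, was at 18.0 and 20.3 CPM with lactic acid and at 18.7 and 15.3 CPM with PBS, with overlap (log2 fold change 0.18, adjusted p = 0.192). The standard errors of the 5 assembly factor genes that did not pass were 0.10 to 0.16 on the log2 scale.

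Of the genes now placed in complex IV, Ndufa4 (chr6:11900292-11907497, minus strand) was at 89.7 and 94.7 CPM with lactic acid and at 107 and 114 CPM with PBS, lower in both lactic acid libraries (log2 fold change -0.26, SE 0.05, adjusted p = 2.31e-06). Ndufa4l2, known as a gene induced in hypoxia, had 0 and 1 counts with lactic acid and 0 and 2 counts with PBS and was not tested. All 4 values are under 3 counts per library, and no fold is given.

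Per unit of gene length, the assembly factor genes were lower than the subunit genes. In the FPKM that the authors deposited, the median level of the 8 assembly factor genes was 7.97 with lactic acid and 6.62 with PBS, that of the 7 core genes 37.5 and 39.1, and that of the 29 accessory genes 29.0 and 28.0. The least abundant tested subunit gene was Ndufb2, at 1.26 ± 0.233 FPKM with lactic acid and 1.28 ± 0.169 FPKM with PBS (SD, n = 2 each). The gene length behind the FPKM of Ndufb2 is 5628 bases in the table, and those of Ndufab1, Ndufb5 and Ndufb7 are 6883, 4995 and 4522 bases. A longer length gives a lower FPKM for the same count. In CPM, which does not use length, Ndufb2 was also the lowest tested subunit gene, at means of 7.16 with lactic acid and 7.21 with PBS. With PBS, Ndufab1, Ndufb5 and Ndufb7 had means of 38.9, 39.3 and 55.4 CPM. Ndufb2 shares 146 exonic bases with Braf on the other strand, which holds 1114% as many reads. The part of length or of this overlap in the level of Ndufb2 was not tested. In 42 of 46 genes the table's length equals the union of the gene's annotated exons in GENCODE M21.

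**Figure D4:**
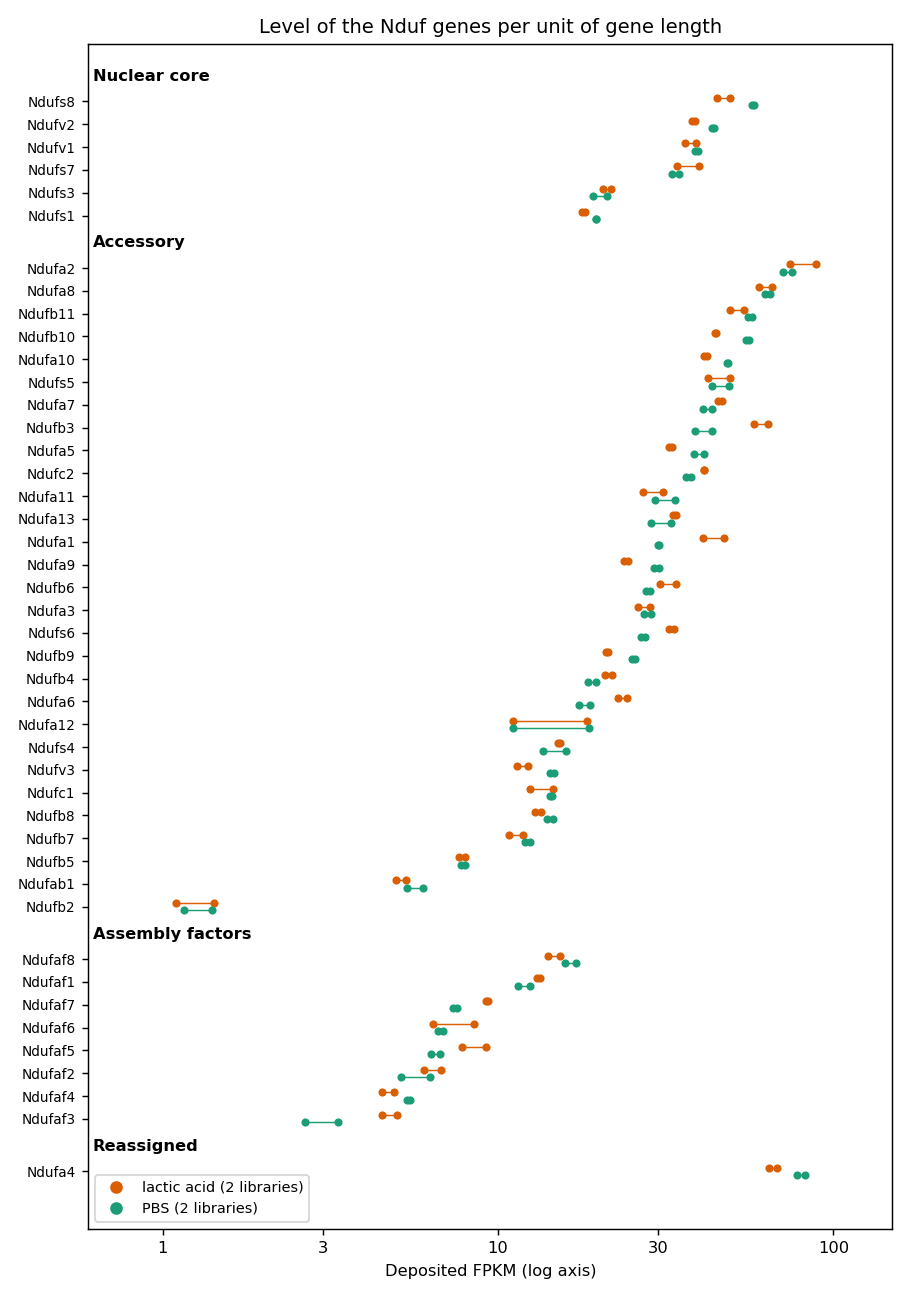
Deposited FPKM of the complex I genes tested, except 1 core gene, on a log axis, ordered within each class by level with PBS, with both lactic acid libraries (orange, joined by a line) drawn over the PBS libraries (green) in each row. All assembly factor genes lie below 20 FPKM, most core and accessory genes lie above it, and Ndufb2 stands lowest near 1 FPKM.

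Reads of some complex I genes may be shared with other genes. Of the 46, 7 have a near-identical stretch in a transcript of another gene, on either strand. The exons of 11 overlap those of a gene holding at least 10% as many reads. A stretch can come from a gene overlapping at the same place, so a gene can enter both tallies. For Ndufb5, the stretch and the overlapping gene Mrpl47 both hold 49.0% as many reads. For Ndufa13, the stretch and the overlapping gene Tssk6 both hold 0.455%. The genes in either tally include 4 of the called genes, Ndufb4, Ndufs6, Ndufaf3 and Ndufs1. Without all genes with such a stretch or partner, 6 were called higher and 10 lower, with 3 core genes lower and 2 assembly factor genes higher. This alternative was chosen after seeing the data.

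The 7 core subunits of the membrane arm come from the mitochondrial genome, and they are given beside the nuclear genes without being counted among them. In sum they were at 6443 and 6827 CPM with lactic acid and at 8289 and 8222 CPM with PBS, lower in both lactic acid libraries, while all transcripts of the mitochondrial genome took 2.25% to 2.29% of the counts in every library. Of the 7, 3 were called lower. The gene with the largest fall, mt-Nd1, was at 2238 and 2393 CPM with lactic acid and at 3320 and 3387 CPM with PBS (fitted log2 change -0.53, SE 0.03, adjusted p = 3.07e-07). The falls of mt-Nd2 and mt-Nd4 were smaller, at -0.26 (SE 0.02) and -0.16 (SE 0.02). Neither mt-Nd5 (-0.12, SE 0.05) nor mt-Nd6 (-0.20, SE 0.11) passed, and both passed as lower with no filter on low counts and in most fits without 1 library, namely mt-Nd5 without lactic acid replicate 2, PBS replicate 1 or PBS replicate 2, and mt-Nd6 without any 1 of the 4. That makes 5 of 7 lower in these fits, or 4 without lactic acid replicate 1.

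The 2 shortest of the 7 were called higher at low counts. For mt-Nd3 there were 40 and 61 counts with lactic acid and 25 and 26 counts with PBS (log2 fold change 1.01, SE 0.32, adjusted p = 0.00662). For mt-Nd4l there were 84 and 41 counts with lactic acid and 32 and 38 counts with PBS, so the rise rests mostly on 1 library (log2 fold change 0.87, SE 0.30, adjusted p = 0.0154). Neither passed with DESeq2, mt-Nd3 did not pass without lactic acid replicate 2 (adjusted p = 0.172), and mt-Nd4l did not pass without lactic acid replicate 1 (0.692). The end of mt-Nd4l overlaps the start of mt-Nd4, and the ends of mt-Nd5 and mt-Nd6 overlap on opposite strands. With lactic acid, mt-Nd4l was at 5.34 and 2.48 CPM beside 912 and 918 CPM of mt-Nd4. With PBS it was at 2.02 and 2.22 CPM beside 1035 and 1007 CPM. Copies of the ND genes elsewhere in the genome were not searched for. The part of shared reads in these low counts was not tested.

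Assembly factors with other names were described from a list of 12, of which 11 were found and tested. Of these, 5 were higher and 1 lower, with a median log2 fold change of 0.14. The called share was 54.5%, beside 49.0% of all genes tested. Tmem70, needed to assemble ATP synthase and complex I, was at 70.2 and 75.5 CPM with lactic acid and at 52.5 and 49.4 CPM with PBS (fitted log2 change 0.52, SE 0.06, adjusted p = 1.23e-10). Nubpl, which delivers iron-sulfur clusters to complex I, was at 14.2 and 15.2 CPM with lactic acid and at 9.83 and 11 CPM with PBS, separate groups as well (log2 fold change 0.50, SE 0.13, adjusted p = 0.00131). In contrast, Tmem126b, of the same complex as Ndufaf1, was at 10.8 and 9.55 CPM with lactic acid and at 13.5 and 14.8 CPM with PBS (fitted log2 change -0.48, SE 0.13, adjusted p = 0.00223).

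Nuclear genes of the other respiratory complexes give the setting for the subunit genes. Of the complex II genes tested, 1 of 4 was lower and the others did not pass, of complex III 1 of 9 higher and 2 lower, and of complex IV, Ndufa4 included, 3 of 11 higher and 4 lower. The median log2 fold changes of complexes II, III and IV were -0.03, 0.03 and -0.06. Of complex V, the ATP synthase, 1 of 16 was higher and 8 were lower, with a median log2 fold change of -0.17, beside -0.11 for the core and -0.01 for the accessory genes of complex I. The called shares of complexes II, III, IV and V were 25%, 33.3%, 63.6% and 56.25%, beside 49.0% of all genes tested.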

How the data were processed

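RNA of LL2 cells from 2 lactic acid and 2 PBS libraries was measured by sequencing, per the labels in pairs of 150 bases from a NEBNext Ultra kit that does not mark strand. The authors deposited a table of raw read counts per gene and a table of FPKM, which equal count over gene length over 1 constant per library. The submitters' processing notes name DESeq2 1.16.1, StringTie 1.3.3b, featureCounts 1.5.0-p3, HISAT2 2.0.5 and CASAVA, beside mm10 and GRCm38.p6, with no roles given. How strand, multiply mapped reads and overlapping genes were counted is not given in the sources used here.

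The count analysis used edgeR 4.0.16 (R 4.3.3): filterByExpr (minimum count 10, minimum total 15), TMM factors (0.983 to 1.017), robust glmQLFit with group as the only term, glmQLFTest two-sided, and Benjamini-Hochberg adjustment over 13922 genes at 0.05. The standard error is the log2 fold change over the square root of F. The test was also run on simulated counts with few changed genes and 1 common spread. That setting is unlike these data, so it does not bear on the calls given here. Alternatives used DESeq2 1.42.0, limma 3.58.1 on log2(FPKM + 0.1 or 1), other scalings and filters, removal of a gene length trend by lowess, a replicate block, and each library left out. Copies, meaning near-identical stretches on either strand in any other gene's transcripts, were found with blastn 2.17.0 (98% identity over 300 bases). Overlaps were found from GENCODE M21 exons, on GRCm38 as in the files.

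The complex I genes, their classes and all lists come from textbook knowledge and were chosen with earlier results of these data known. Values per library are given for core and Ndufaf genes and for the 5 accessory genes with the smallest p each way, and from each related list the 3 called genes with the smallest p could be named. Values of 2 such genes are not reported here, though counts, sums and medians include them. Other genes were named after their values were seen, where a call changed or a feature stood out.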

Additional observations from a re-analysis of the deposited data

How the results depend on the processing

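Of the 20 called complex I genes, 13 kept their call in all 13 alternatives and 0 changed direction, and 6 others were called in at least 1 alternative. DESeq2's Wald test called 2251 of all genes higher and 2494 lower, against 3445 and 3377 with edgeR. It called 5 complex I genes higher against 9, 3 accessory genes higher against 6, and 0 mitochondrial ND genes higher against 2. Limma on log2 FPKM called 1 mitochondrial ND gene higher at either pseudocount, upper quartile scaling called 1 core gene higher, and without the filter on low counts 5 mitochondrial ND genes were lower against 3. The core median log2 fold change of -0.110 was -0.117 with DESeq2 size factors, -0.0907 with upper quartile scaling, -0.117 with the Wald test, -0.122 and -0.116 with limma at pseudocounts of 0.1 and 1, and -0.124 with the length trend removed. The assembly median of 0.164 was 0.183 with upper quartile scaling, 0.136 with limma at a pseudocount of 1 and 0.144 with the length trend removed. Leaving out 1 library gave 0 to 1 core genes higher, 1 to 2 mitochondrial ND genes higher and 4 to 5 lower, medians of -0.0743 to 0.0357 for all complex I genes and the same for accessory genes (the same gene is the middle one in both), -0.125 to -0.108 for core genes, 0.192 to 0.225 for assembly factor genes, and -0.183 to -0.0995 for mitochondrial ND genes. The cause of these shifts was not tested. The labels do not say that same-numbered libraries are paired. Their deviations from the group means correlated at 0.0038 over 13922 genes, a single value that cannot exclude a pairing. With a replicate block, 3459 of all genes were higher and 3393 lower, and 10 complex I genes were higher and 11 lower, Ndufa2 being added (adjusted p = 0.0432). Depth limits the genes with few reads: mt-Nd3 had 25 to 61 counts a library (SE 0.32) and Ndufaf3 83 to 144 (SE 0.18).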

Other observations

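Genes around complex I moved in both directions too. Of 11 genes of ubiquinone synthesis tested, 4 were higher and 1 lower (median log2 fold change 0.12). Coq3, a methyltransferase of this pathway, was at 14.7 and 14.3 CPM with lactic acid and at 5.99 and 7.18 CPM with PBS (fitted log2 change 1.14, SE 0.15, adjusted p = 2.66e-09), and Coq8b (1.24, SE 0.19) and Coq2 (0.41, SE 0.06) also rose. Of 5 other enzymes that reduce ubiquinone, Sqor (1.09, SE 0.19), which oxidises sulfide, and Dhodh (0.46, SE 0.08), of pyrimidine synthesis, were higher and the others did not pass. Of 13 iron-sulfur cluster assembly genes tested, 3 were higher and 4 lower. The called shares of these lists, in the order given, were 45.5%, 40% and 53.8%, beside 49.0% of all genes tested. Bola3, which helps to deliver the clusters, was at 26.2 and 25.1 CPM with lactic acid and at 36.0 and 36.4 CPM with PBS (fitted log2 change -0.50, SE 0.08, adjusted p = 7.70e-07), and the cysteine desulfurase gene Nfs1 rose (0.45, SE 0.08).

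Of 12 regulators of mitochondrial biogenesis tested, 1 was higher and 6 were lower (median log2 fold change -0.22). The called share was 58.3%, beside 49.0% of all genes tested. Gabpb2, a subunit of the ETS factor GABP, was at 104 and 102 CPM with lactic acid and at 153 and 148 CPM with PBS (fitted log2 change -0.56, SE 0.04), and the coactivator gene Pprc1 fell too (-0.43, SE 0.04). The receptor gene Esrra rose, at 48.7 and 45.6 CPM with lactic acid and at 30.2 and 26.9 CPM with PBS (fitted log2 change 0.72, SE 0.08).

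Across the 45 complex I genes tested, log2 fold change and mean CPM had a Spearman rho of -0.44, beside -0.16 across all 13922 genes, as a description over genes that share the same 4 libraries and whose CPM enters both measures. With gene length, rho was -0.19 for the complex I genes and -0.0034 for all genes.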
